A study of Saccharomyces cerevisiae with 30 samples.

Results

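Ribosome footprints of 9 budding yeast genes that make cell wall chitin and glucan were followed after Srp72, a subunit of the signal recognition particle (SRP), was targeted for degradation. SRP brings ribosomes that make secretory and membrane proteins to the endoplasmic reticulum (ER). The genes CHS1, CHS2, CHS3, CHS7, FKS1, GSC2, KRE5, KRE6 and SKN1 were taken by name from the 5890 genes listed for each library. All 9 were found in every library, and all 9 were among the 5286 genes tested, those whose input counts averaged 20 or more. Enrichment at an organelle was compared with the whole cell, and whole-cell footprints were compared over time.

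Chitin and glucan are polymers of the yeast cell wall. Chitin synthases and 1,3-beta-glucan synthases are proteins with many transmembrane segments. They are made at the ER, travel to the plasma membrane and build their polymer there from sugar nucleotides. Chs1 repairs the wall after cell separation, Chs2 lays down the primary septum between mother and daughter, and Chs3 makes most of the other chitin. Chs7 is an ER membrane protein that Chs3 needs to leave the ER. Fks1 is the main catalytic subunit of 1,3-beta-glucan synthase in growing cells, and Gsc2, also called Fks2, is its homolog, known for rising under wall stress and on poor carbon sources. Kre5 is a soluble protein of the ER lumen needed for 1,6-beta-glucan, and Kre6 and Skn1 are homologous membrane proteins with 1 transmembrane segment that act in the same pathway.

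In proximity-specific ribosome profiling a biotin ligase (BirA) fused to a protein of an organelle marks nearby ribosomes that carry an acceptor tag. A streptavidin pulldown collects them, and enrichment here means pulldown over whole-cell input of the same culture, as a log2 ratio. In every strain Srp72 carried an auxin-inducible degron and HA (AID-HA, marked with LEU2), and Rpl16a and Rpl16b carried HA-TEV-AVI. The strains with BirA on Sec63 (SEC63-mVenus-BirA) or on Om45 (OM45-mVenus-BirA), each marked with HIS5, had OsTIR1-V5 with URA3 at his3. In the Ubc6 strain the tail anchor of Ubc6 held BirA-mVenus at the ER, expressed from the SEC63 promoter at his3 together with OsTIR1-V5 and HIS5. These strains were S288C with leu2-delta-0, met15-delta-0 and ura3-delta-0. The Tom20 strain (TOM20-mVenus-BirA with HIS5) was W303 with OsTIR1 beside the degron and the alleles ade2-1, ura3-1, can1-100, trp1-1, his3-11,15 and both leu2 alleles 3 and 112. OsTIR1 is the plant F-box protein that auxin needs to send a degron-tagged protein for degradation. Sec63 and Ubc6 mark the ER, and Tom20 and Om45 mark the mitochondrial outer membrane.

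Cells grew in synthetic medium with 0.125 ng/ml biotin and received 500 µM auxin. The Sec63 and Ubc6 series with 100 µg/ml cycloheximide, an inhibitor of elongation, were sampled at 0, 15, 30 and 60 min. A Sec63 series without cycloheximide was sampled at 0, 30 and 60 min, and Tom20 and Om45, with the drug, at 0 and 30 min. The biotin pulse at 10 nM lasted 2 min with the drug and 1 min without it. Each of the 15 pairs of pulldown and input was 1 culture with no replicate, so the 3 ER series and 2 mitochondrial series are the units that repeat. P-values measure consistency over these series, which differ in bait, drug and, for Tom20, strain. The tests of Sec63 against Ubc6 and of cycloheximide are exceptions, as 1 series stood against 1 other. Their p-values measure consistency over auxin times, and no series repeats there. Libraries without the degron were not analysed here.

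Pulldowns held 4.86 to 103 M counts (median 19.7 M) and inputs 2.04 to 113 M (median 22 M). For the 9 genes the counting error of log2 enrichment was at most 0.16, the largest being in the Ubc6 pair without auxin, which had the smallest input. Counting errors cover sampling of reads only. SRP72 itself had input levels of 36.2 to 64 RPKM (footprints scaled by gene length and library total). Its input footprints fell by 0.32 on the log2 scale at 30 min (edgeR adjusted p = 0.0074) and by 0.52 at 60 min (adjusted p = 0.000777), when 23.9% and 28.2% of all genes fell, but were at 0.11 at 60 min, not passing, with libraries centred on glycolysis and translation factor genes. The degron acts on the protein, so footprints do not show how much Srp72 was lost. The marker MET17 (MET15) had at most 4 counts in each S288C library and at least 10169 in each Tom20 library, as the strain labels state.

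After 30 min of auxin all 9 messages fell at the ER baits, with log2 changes of -1.75 to -1.03, and after 60 min of -2.18 to -1.5. FKS1 fell most at 30 min and GSC2 at 60 min. Among all genes tested, 11.5% fell at 30 min and 12.3% at 60 min (23.1% rose at 60 min) by the same test, the edgeR quasi-likelihood test with a Benjamini-Hochberg adjusted p below 0.05 over all genes. The median change of the 9 genes was -1.41 at 30 min and -1.69 at 60 min, whereas that of all genes was 0.15 and 0.29. Each of the 9 genes was lower than at 0 min in each of the 3 ER series at both times. The share of all genes lower in all 3 is not given here. KRE6 with Ubc6 at 30 min (-0.57) lay above 21.8% of all genes, the highest such standing among these values. With 1 shared enrichment term per compartment in place of 1 per series, which leaves the differences between series in the error, the changes had nearly the same size and only FKS1 passed at 30 min (adjusted p = 0.0452) and 6 of the 9 at 60 min. At the mitochondrial baits no gene of the 9 passed the test. The plot of enrichment by pair shows all 15 pairs. In the ER pairs the median enrichment of all genes lay between -0.45 and 0.15, so 0 is not the level of the median gene.

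**Figure D1:**
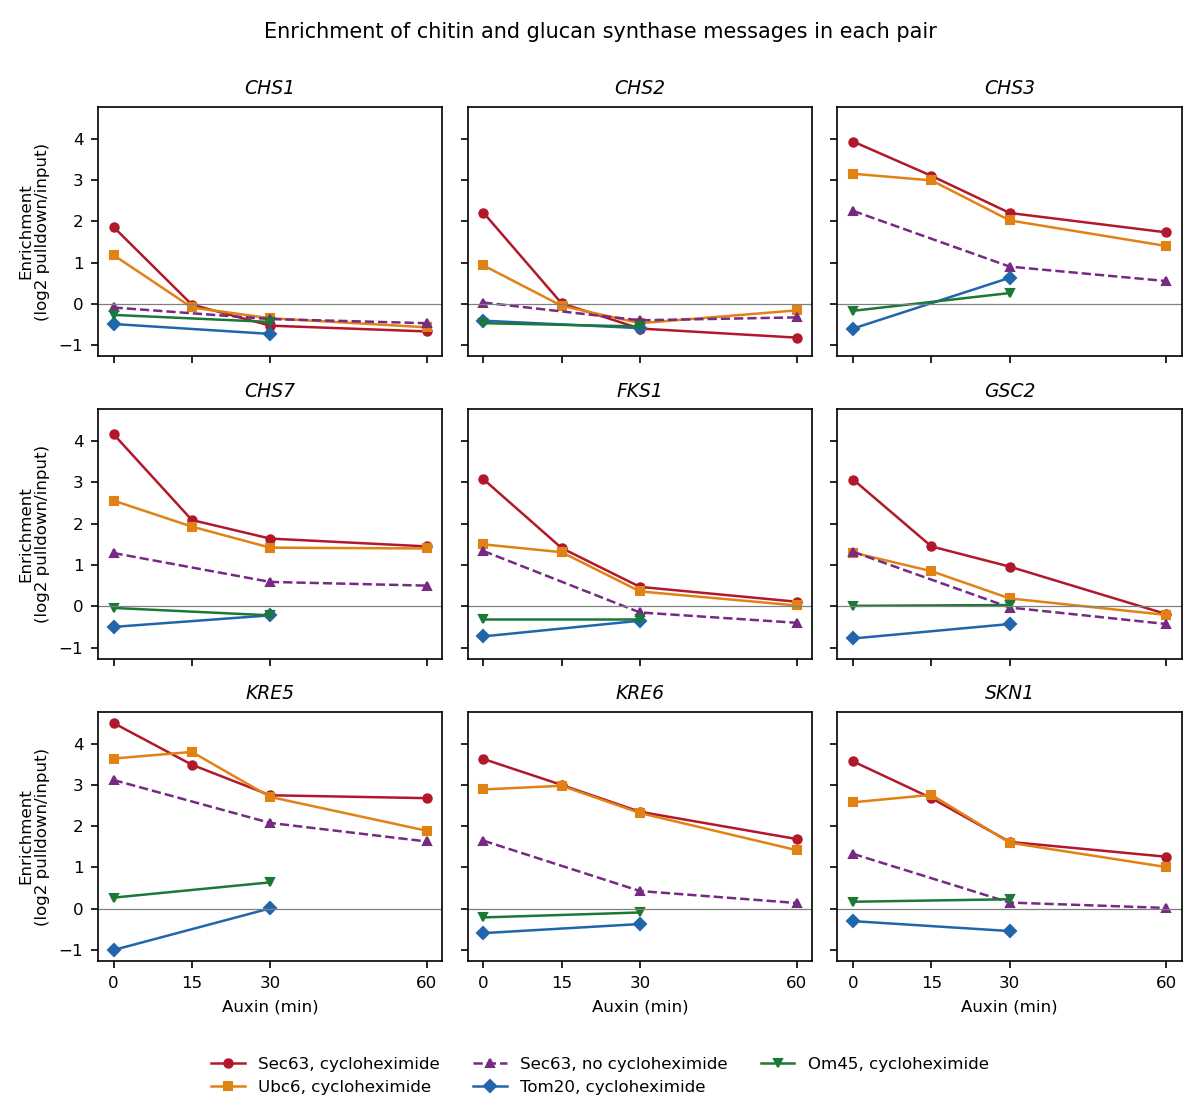
Enrichment (log2 pulldown over input, y axis) of each of the 9 messages against minutes of auxin (x axis), 1 point per pair of libraries and 1 line per series. The ER series (Sec63, Ubc6) lie above the mitochondrial series (Tom20, Om45) at 0 min and fall with auxin. At 60 min CHS1, CHS2 and GSC2 are below 0 in each ER series, and FKS1 is below 0 without cycloheximide. KRE5 is still at 1.63 or more at 60 min.

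Before auxin the 9 messages differed widely in how strongly the ER baits recovered them. Mean enrichment over the 3 ER series at 0 min was highest for KRE5 at 3.75 ± 0.70 (SD, n = 3 throughout this comparison), then 3.11 ± 0.84 for CHS3, 2.73 ± 1.0 for KRE6, 2.67 ± 1.44 for CHS7 and 2.49 ± 1.12 for SKN1. FKS1 at 1.98 ± 0.96 and GSC2 at 1.89 ± 1.02 followed, and CHS2 at 1.06 ± 1.1 and CHS1 at 0.98 ± 0.99 came last. Neighbours in this order differ by less than their SD over series, which does not use that the genes share pairs. Within each of the 3 ER series KRE5 was above CHS3 and CHS3 above KRE6. FKS1 was likewise above GSC2 and GSC2 above CHS2 in each. The other neighbours changed places between series. At the mitochondrial baits the means lay between -0.52 (FKS1) and -0.07 (SKN1).

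In the test of ER against mitochondrial baits without auxin, 4 of the 9 messages were higher at the ER, and 9.48% of all genes tested were higher. These were KRE5 by 4.18 ± 0.66 on the log2 scale (SE, edgeR adjusted p = 0.00934), CHS3 by 3.57 ± 0.63 (adjusted p = 0.0137), KRE6 by 3.21 ± 0.70 (adjusted p = 0.0275) and FKS1 by 2.55 ± 0.68 (adjusted p = 0.0472). CHS7 (3.01), SKN1 (2.63), GSC2 (2.33), CHS2 (1.57) and CHS1 (1.44) had positive differences that did not pass. With 3 residual degrees of freedom the count rested on single series. Without Tom20 or without Ubc6 no member passed, without Om45 only KRE5 did, and without the Sec63 series lacking cycloheximide all 9 did. With DESeq2 or with library totals as the scaling 7 passed, and with the centring on glycolysis and translation factor genes FKS1 did not (2.64, adjusted p = 0.0666). With library totals 14.2% of all genes were higher, and with the centring 5.37%. The shares of all genes with DESeq2 or with a series left out are not given here, so those counts cannot be set against all genes.

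Chs3 and its ER escort Chs7 kept part of their ER enrichment through the hour. With Sec63 and cycloheximide CHS3 stood at 3.93, 3.10, 2.20 and 1.73 at 0, 15, 30 and 60 min, and with Ubc6 at 3.15, 2.99, 2.02 and 1.40. Without cycloheximide it was 2.25, 0.90 and 0.55 at 0, 30 and 60 min. Each of the 3 series was lower at each later time, and none reached 0. The fitted ER change of CHS3 was -1.41 ± 0.17 (SE) at 30 min (edgeR adjusted p = 0.000214) and -1.89 ± 0.17 at 60 min (adjusted p = 2.2e-05).

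CHS7 began at 4.17 with Sec63 and cycloheximide and stood at 2.09, 1.64 and 1.45 after 15, 30 and 60 min. With Ubc6 it was 2.56, 1.93, 1.42 and 1.40 at 0, 15, 30 and 60 min, and without cycloheximide 1.29, 0.59 and 0.50 at 0, 30 and 60 min. Most of the drop with Sec63 lay in the first 15 min. The fitted change of CHS7 was -1.47 ± 0.32 at 30 min (edgeR adjusted p = 0.006) and -1.57 ± 0.32 at 60 min (adjusted p = 0.00318). Without the Ubc6 series the 30 min call was lost (-1.72, adjusted p = 0.0588).

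For the septum and repair enzymes Chs2 and Chs1, enrichment with cycloheximide was near 0 in both 15 min pairs, a change that did not pass the test at that time (adjusted p = 0.181 for CHS1 and 0.224 for CHS2). The median of all genes in these pairs was -0.34 with Sec63 and -0.28 with Ubc6, so both messages were still above it. With Sec63 and cycloheximide CHS1 had 1.86 at 0 min and -0.02, -0.53 and -0.67 at 15, 30 and 60 min, and with Ubc6 1.18, -0.09, -0.35 and -0.57. CHS2 with Sec63 had 2.21, 0.01, -0.60 and -0.82, and with Ubc6 0.93, -0.05, -0.47 and -0.16. Every value of both genes from 30 min on was below 0. Without cycloheximide both genes stood near or below 0 at every time, with -0.09, -0.37 and -0.47 for CHS1 and 0.03, -0.40 and -0.33 for CHS2 at 0, 30 and 60 min. The median of all genes in that series was -0.11, 0.05 and 0.15 at these times.

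The fitted ER change at 30 min was -1.39 ± 0.32 for CHS1 (edgeR adjusted p = 0.00929) and -1.55 ± 0.39 for CHS2 (adjusted p = 0.0139). At 60 min it was -1.54 ± 0.32 for CHS1 (adjusted p = 0.00385) and -1.5 ± 0.39 for CHS2 (adjusted p = 0.0126). Leaving out a series ended some of these calls. Without Ubc6 the 30 min changes were -1.44 for CHS1 (adjusted p = 0.136) and -1.72 for CHS2 (adjusted p = 0.133), and the 60 min changes -1.59 (adjusted p = 0.0926) and -1.83 (adjusted p = 0.105). Without the Sec63 series with cycloheximide CHS1 changed by -1.07 at 30 min (adjusted p = 0.0807).

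Both 1,3-beta-glucan synthases reached values near 0 at the ER baits. At 60 min the median of all genes was -0.13 with Sec63 and cycloheximide, 0 with Ubc6 and 0.15 without cycloheximide. FKS1 with Sec63 and cycloheximide had 3.08, 1.41, 0.47 and 0.11 at 0, 15, 30 and 60 min, and with Ubc6 1.5, 1.31, 0.36 and 0.02. Without cycloheximide FKS1 had 1.34, -0.15 and -0.40 at 0, 30 and 60 min. GSC2 ran close to FKS1, with 3.07, 1.45, 0.96 and -0.19 with Sec63, 1.30, 0.85, 0.19 and -0.21 with Ubc6, and 1.32, -0.03 and -0.43 without cycloheximide.

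FKS1 changed at the ER by -1.75 ± 0.25 at 30 min (edgeR adjusted p = 0.000484) and by -2.06 ± 0.25 at 60 min (adjusted p = 1e-04). GSC2 changed by -1.53 ± 0.26 at 30 min (adjusted p = 0.00119) and by -2.18 ± 0.26 at 60 min (adjusted p = 7.98e-05). At 30 min FKS1 passed in all 11 alternative fits, with changes between -2.16 and -1.43. FKS1 and GSC2 are close paralogs, and how reads that match both were counted is not given in the sources used here, so their separation is uncertain.

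The 1,6-beta-glucan genes stayed enriched at the ER with cycloheximide. KRE5, which encodes the soluble protein, had 4.50, 3.49, 2.75 and 2.68 with Sec63 at 0, 15, 30 and 60 min, and 3.64, 3.8, 2.71 and 1.89 with Ubc6. Without cycloheximide KRE5 was still at 3.12, 2.08 and 1.63 at 0, 30 and 60 min, the highest of the 9 genes at each of these times. KRE5 changed at the ER by -1.25 ± 0.22 at 30 min (edgeR adjusted p = 0.00154) and by -1.69 ± 0.22 at 60 min (adjusted p = 0.000139).

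KRE6 had 3.63, 3.0, 2.35 and 1.69 with Sec63 and cycloheximide and 2.89, 2.98, 2.32 and 1.42 with Ubc6. Its homolog SKN1 had 3.57, 2.68, 1.62 and 1.26 with Sec63 and 2.58, 2.76, 1.60 and 1.01 with Ubc6. At 15 min the Ubc6 values of KRE5, KRE6 and SKN1 were slightly above those at 0 min. Without cycloheximide KRE6 had 1.65, 0.43 and 0.14 and SKN1 1.33, 0.15 and 0.02, so both ended near 0 there. The median of all genes in that series was 0.15 at 60 min. KRE6 changed by -1.03 ± 0.15 at 30 min (edgeR adjusted p = 0.000559), the smallest fall of the 9, and SKN1 by -1.39 ± 0.21 (adjusted p = 0.000571).

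**Figure D2:**
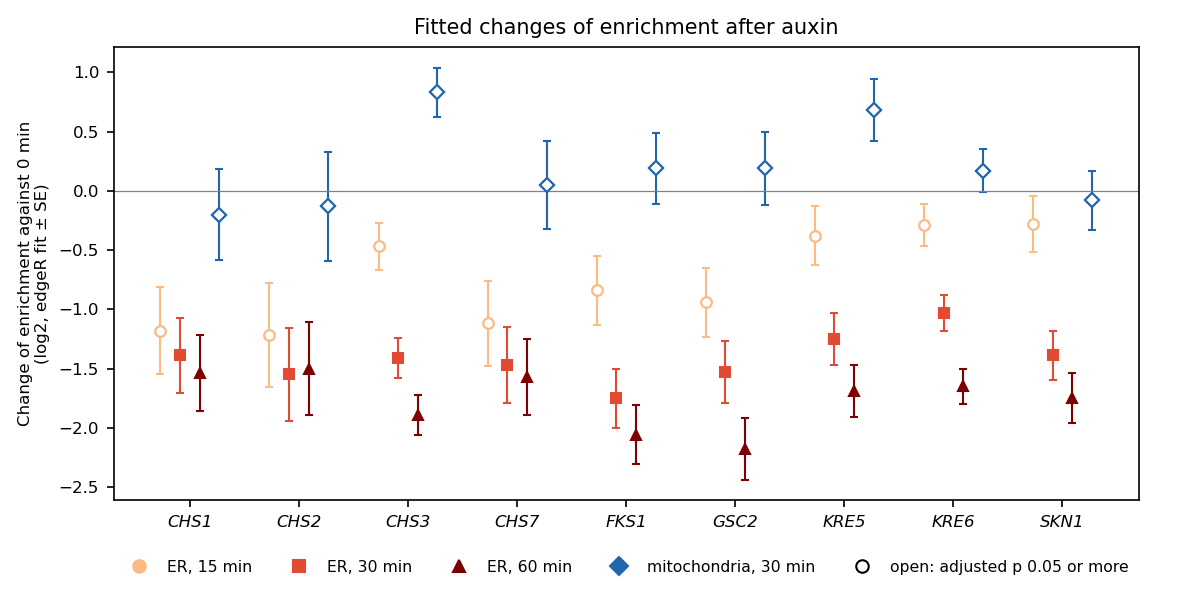
Fitted change of enrichment against 0 min of auxin (log2, y axis) for each message (x axis), at the ER baits after 15, 30 and 60 min and at the mitochondrial baits after 30 min. Points are edgeR estimates and bars their SE, and open points had an adjusted p of 0.05 or more. All ER points at 30 and 60 min are filled and lie between -2.18 and -1.03, and all points at 15 min and at the mitochondria are open.

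At 15 min the ER comparison rested on 2 series and called no gene of the 9 and 0% of all genes with edgeR. At an unadjusted p below 0.05 there were 6 of the 9 members (CHS1, CHS2, CHS3, CHS7, FKS1 and GSC2) and 885 genes in all, and DESeq2 called 65 genes higher and 81 lower but no member. Fitted changes were -1.22 for CHS2, -1.18 for CHS1, -1.12 for CHS7, -0.94 for GSC2 and -0.84 for FKS1, against -0.47 for CHS3, -0.38 for KRE5, -0.29 for KRE6 and -0.28 for SKN1. All 9 messages were lower than at 0 min with Sec63, by 0.63 to 2.20, and 6 of 9 with Ubc6, where changes ran between -1.26 and 0.17. The median change of all genes was 0.09 with Sec63 and 0.05 with Ubc6. Whether the baits differed in their 15 min change was not tested. Without the Sec63 series lacking cycloheximide, which has no 15 min pair but enters the joint fit, CHS1, CHS2 and CHS7 passed. The share of all genes passing in that fit is not given here.

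In the mitochondrial pairs only CHS3 with Tom20 and KRE5 with Om45, both at 30 min, exceeded 0.27. Across the Tom20 and Om45 pairs at 30 min the 9 genes lay between -0.73 and 0.64. After 30 min of auxin 0.927% of all genes were called higher there and 0.114% lower, and no member in either direction. CHS3 came nearest, with 0.63 at 30 min against -0.60 at 0 min with Tom20, and 0.26 at 30 min against -0.17 at 0 min with Om45. Its fitted change was 0.83 ± 0.21 (edgeR adjusted p = 0.0924), and DESeq2 gave 0.85 with an adjusted p of 0.0195. KRE5 had 0.01 at 30 min against -1.0 at 0 min with Tom20, and 0.64 at 30 min against 0.27 at 0 min with Om45, a fitted change of 0.68 ± 0.26 (adjusted p = 0.537).

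The difference of the 30 min changes, ER minus mitochondria, passed for 6 of the 9 genes, all lower at the ER, as for 10.6% of all genes, while 2.59% were higher. It was -2.24 ± 0.27 for CHS3 (edgeR adjusted p = 0.000318), -1.94 ± 0.40 for FKS1 (adjusted p = 0.00627), -1.93 ± 0.34 for KRE5 (adjusted p = 0.00276), -1.71 ± 0.40 for GSC2 (adjusted p = 0.0131), -1.31 ± 0.32 for SKN1 (adjusted p = 0.0172) and -1.20 ± 0.24 for KRE6 (adjusted p = 0.00539). CHS7 (-1.51), CHS2 (-1.42) and CHS1 (-1.19) did not pass. CHS7 passed with library totals (-1.11), with DESeq2 (-1.59) and with no filter on low counts (-1.57). CHS7 (-1.94), CHS2 (-2.02) and CHS1 (-1.79) all passed without the Sec63 series lacking cycloheximide. With library totals 8.85% of all genes were lower, and the shares in the other alternative fits are not given here. Without the Tom20 series only CHS3 passed, and with 1 shared enrichment term per compartment none did. SKN1 was also lost without Om45 (-1.23, adjusted p = 0.141) and without the Sec63 series with cycloheximide (-1.02, adjusted p = 0.0884), and KRE6 (-0.81) and SKN1 (-0.90) did not pass with library totals. Tom20 was the W303 strain, and with 2 mitochondrial series strain and bait cannot be told apart there.

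Between both ER baits with cycloheximide, matched at 4 times, GSC2 was higher with Sec63 than with Ubc6 by 0.89 ± 0.24 (edgeR adjusted p = 0.0427), and 8.13% of all genes were higher with Sec63. The other 8 members had positive differences of 0.22 (CHS1) to 0.60 (CHS7) that did not pass. The largest gaps were at 0 min, where GSC2 had 3.07 with Sec63 and 1.30 with Ubc6, CHS7 had 4.17 with Sec63 and 2.56 with Ubc6, and FKS1 had 3.08 with Sec63 and 1.5 with Ubc6. At 60 min GSC2 had -0.19 with Sec63 and -0.21 with Ubc6. No series repeats in this test, so its p-values measure consistency over the 4 times only. The Ubc6 input at 0 min was the smallest library, with 2.04 M counts, and its part in the result was not tested.

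With cycloheximide 7 of the 9 messages were more enriched at Sec63 than without it, over 3 matched times, as were 19.2% of all genes, while 6.43% were less enriched. KRE6 differed most at 2.04 ± 0.15 (edgeR adjusted p = 0.00137), followed by SKN1 at 1.87, CHS7 at 1.84, CHS3 at 1.61, KRE5 at 1.25, GSC2 at 1.21 and FKS1 at 1.18. CHS1 (0.75) and CHS2 (0.71) did not pass. With library totals as the scaling the values of KRE5, GSC2 and FKS1 were 0.43, 0.39 and 0.35 and no longer passed. Under that scaling 13.8% of all genes were more enriched and 57.4% less. No series repeats in this test, so its p-values measure consistency over the 3 times only. The biotin pulse also differed, 2 min with the drug and 1 min without it, and the pulse and the drug cannot be told apart.

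In whole cells FKS1 had the highest footprint density of the 9 genes. At 0 min its input level was 306 ± 62 RPKM (SD, n = 5 series), with a range of 202 to 362, and that of KRE6 was 126 ± 25.4 RPKM, with a range of 83.1 to 148. FKS1 stood first and KRE6 second in 5 of 5 inputs, FKS1 being 2.28 to 2.74 times KRE6. The other 7 averaged between 15.9 RPKM (SKN1) and 49.2 RPKM (CHS2 and CHS7). Neighbours in the descending order CHS2, CHS7, GSC2, CHS1, CHS3, KRE5 and SKN1 overlapped in their ranges over the 5 inputs. The lowest value of 7 of the 9 genes (all but CHS7 and GSC2) came from the Ubc6 input, whose RPKM scaling used a larger total than its listed counts.

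The whole-cell footprints of the 2 glucan synthases moved in opposite directions over the hour. The cultures were bulk samples, so a change in cells that translate a message and in footprints per cell cannot be told apart. FKS1 had 757, 679 and 819 CPM (counts scaled to library size) at 60 min, against 1930, 1770 and 1850 CPM at 0 min in the Sec63, Ubc6 and cycloheximide-free Sec63 series. GSC2 had 664, 713 and 772 CPM at 60 min, against 326, 282 and 342 CPM at 0 min in the same series. The groups did not overlap for either gene, and the share of all genes without overlap is not given here. The fitted input change at 60 min was -1.33 ± 0.12 for FKS1 (edgeR adjusted p = 1.96e-06), and 28.2% of all genes fell. For GSC2 it was 1.16 ± 0.16 (adjusted p = 5.8e-05), and 30.6% of all genes rose.

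GSC2 made up 46.5%, 51% and 48.3% of the summed RPKM of both genes at 60 min in the Sec63, Ubc6 and cycloheximide-free Sec63 inputs. At 0 min its share was 14.3%, 13.6% and 15.5% in the same series, 14.5% in the Om45 series and 7.15% in the W303 strain with Tom20. At 30 min it was 22.3%, 22.1% and 14.3% in the 3 ER series, 17.7% with Om45 and 11.7% with Tom20. The Sec63 series with cycloheximide had its lowest share, 8.12%, at 15 min. Exact 95% intervals of the shares by counts were at most 2 points wide and cover counting error only.

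**Figure D3:**
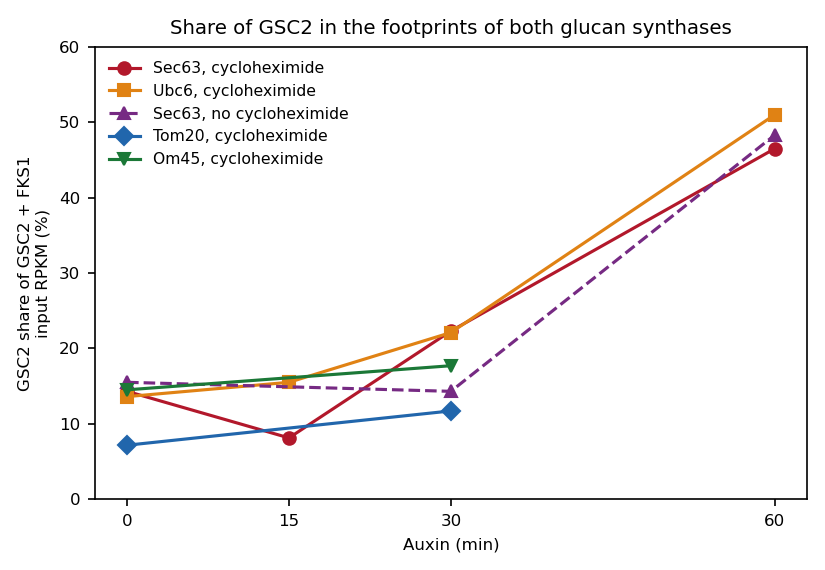
GSC2 as a percentage of the summed FKS1 and GSC2 input RPKM (y axis) against minutes of auxin (x axis), 1 point per input library and 1 line per series. The 3 series sampled at 60 min reach 46.5% to 51%, and the inputs at 0 min lie at 7.15% to 15.5%.

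Among the CHS genes CHS1 footprints rose at 60 min by 0.58 ± 0.19 (edgeR adjusted p = 0.018), with 186, 178 and 208 CPM at 60 min against 152, 92.9 and 150 CPM at 0 min. Without the Ubc6 series CHS1 did not pass (0.49, adjusted p = 0.0944), nor without the cycloheximide-free Sec63 series (0.56, adjusted p = 0.0527). CHS7 (-0.72 ± 0.18, adjusted p = 0.0042), CHS3 (-0.57 ± 0.10, adjusted p = 0.000248) and CHS2 (-0.53 ± 0.10, adjusted p = 0.000599) fell at 60 min, but with libraries centred on glycolysis and translation factor genes CHS7 was at -0.08, and CHS3 (0.07) and CHS2 (0.11) turned round, none of them passing. This centring shifted the median of all genes by 0.64 at 60 min, and FKS1 (-0.69) and GSC2 (1.80) kept their directions and calls. Relative to the median of all genes CHS3 stood at -0.63 and CHS2 at -0.59 under either scaling.

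KRE5 footprints were low at 30 min in all 5 series and higher again at 60 min. They were 43.3, 50.8, 48.1, 38.5 and 44.6 CPM at 30 min, against 73.4, 89, 81.9, 66.9 and 79.4 CPM at 0 min, in the Sec63, Ubc6, cycloheximide-free Sec63, Tom20 and Om45 series. The fitted change was -0.79 ± 0.08 (edgeR adjusted p = 9.58e-06), and 23.9% of all genes fell at 30 min. At 60 min KRE5 had 60, 84.5 and 75.1 CPM in the 3 ER series, a change of -0.17 ± 0.10 that did not pass (adjusted p = 0.161), and with the glycolysis centring KRE5 was higher by 0.47 (adjusted p = 0.00203). That centring called 65.3% of all genes higher at 60 min. Relative to the median of all genes KRE5 stood at -0.23 with the centring and without it.

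CHS3 (-0.44, edgeR adjusted p = 0.000564), KRE6 (-0.43, adjusted p = 0.000383) and FKS1 (-0.42, adjusted p = 0.00394) also fell at 30 min. Without the Sec63 series with cycloheximide FKS1 did not pass (-0.38, adjusted p = 0.0563). At 15 min only KRE5 was called, at -0.42 ± 0.12 (adjusted p = 0.0316), as 8.48% of all genes fell and 5.24% rose, but it did not pass when any 1 of the 3 ER series was left out, with -0.31 (adjusted p = 0.288) without Ubc6. KRE6 at 60 min was -0.15 and SKN1 -0.04, neither passing, although DESeq2 called KRE6 lower (-0.18, adjusted p = 0.0497). The glycolysis centring turned them to 0.48 and 0.60, whereas relative to the median of all genes KRE6 stood at -0.22 and SKN1 at -0.10 under that centring, against -0.21 and -0.09 without it. SKN1 stayed between 35.3 and 45.1 CPM in all 15 inputs.

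**Figure D4:**
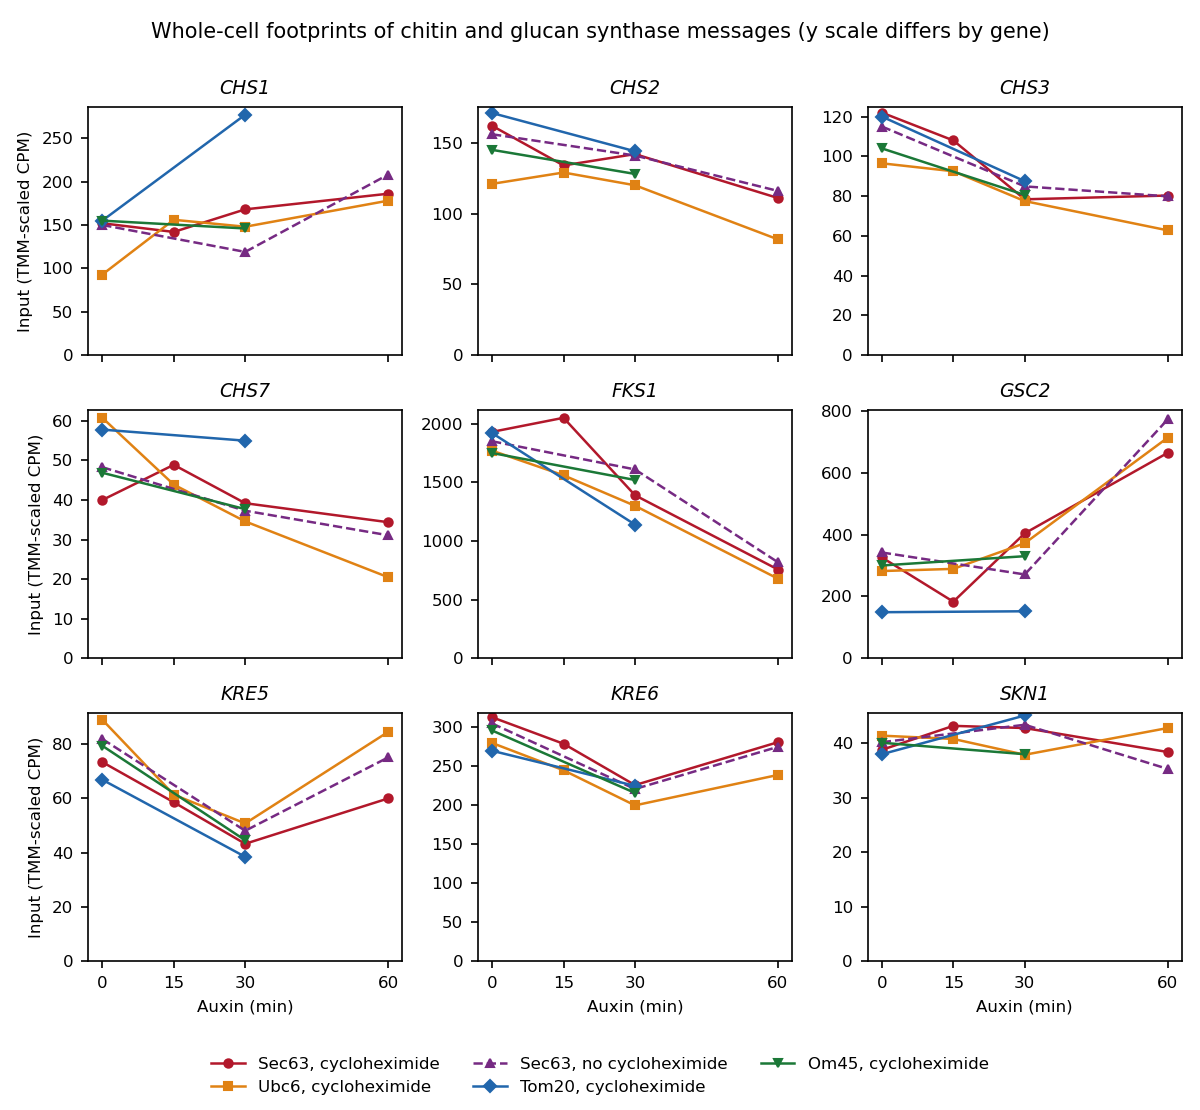
Input footprints (TMM-scaled CPM, y axis from 0, a scale of its own for each gene) against minutes of auxin (x axis), 1 point per input library and 1 line per series. FKS1 is at 679 to 819 and GSC2 at 664 to 772 at 60 min, and KRE5 is lowest at 30 min in each series.

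Enrichment over the 15 pairs was compared between the 9 genes. Pearson's r was 0.97 between CHS1 and CHS2, 0.97 between FKS1 and GSC2, 0.98 between KRE6 and SKN1 and 0.97 between CHS3 and KRE6, but 0.59 between CHS2 and KRE5. The pairs share libraries, bait and time, so these values describe the 15 pairs only. Among 5064 genes whose input counts averaged 100 or more, those most like CHS3 were PMT2 (r = 0.996), PMT3 (0.996) and CSC1 (0.993), the first 2 encoding ER mannosyltransferases with many transmembrane segments. Most like FKS1 were VSB1 (0.989), PTR2 (0.989) and BAP3 (0.988), of which PTR2 and BAP3 encode plasma membrane transporters of peptides and amino acids. Most like KRE5 were YLR001C (0.993), EMC1 (0.99) and HMG2 (0.989). EMC1 encodes a subunit of the ER membrane complex and HMG2 a sterol synthesis enzyme of the ER membrane.

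Other genes of the same pathways were compared at the ER after 30 min. Of 10 partners of 1,6-beta-glucan synthesis 4 fell at 30 min, namely KEG1 (-1.24 ± 0.17, edgeR adjusted p = 0.000416), which encodes an ER membrane protein that binds Kre6, KRE9 (-1.06 ± 0.18, adjusted p = 0.00138), the ER chaperone gene CNE1 (-0.83) and KRE1 (-0.64), against 11.5% of all genes, and the median of the 10 was -0.60. With library totals as the scaling CNE1 and KRE1 no longer passed and ROT1 rose (0.77). KNH1, the homolog of KRE9, had -1.19 and did not pass (adjusted p = 0.0576), but it did with the glycolysis centring (-1.39, adjusted p = 0.0362) and with TMM over all genes with a count, chosen after seeing the data (-1.24, adjusted p = 0.0465). Of 7 genes for partners of chitin synthase 3 only PFA4 fell (-1.18 ± 0.30, adjusted p = 0.0149), a share near that of all genes. PFA4 encodes the ER membrane palmitoyltransferase of Chs3. The activator SKT5 (0.28) and the exomer subunit CHS6 (0.27) did not pass, SKT5 passing with library totals (0.59, adjusted p = 0.0454), and the median of the list was 0.17.

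None of the 4 enzymes that make the chitin precursor passed at 30 min, with PCM1 at 0.37, GNA1 at -0.23 and QRI1 at 0.11. PCM1 passed with library totals (0.69). Among 6 genes for regulators of 1,3-beta-glucan synthase and the homolog FKS3, SMI1 rose (0.77 ± 0.19, edgeR adjusted p = 0.0113), as 8.85% of all genes did, and ROM2 (0.50) and FKS3 (-0.85 ± 0.74) did not pass. SMI1 did not pass with the glycolysis centring, and ROM2 passed with library totals (0.81). Of 18 tested enzymes that remodel glucan and chitin only DSE4, a daughter-specific glucanase, fell (-0.92 ± 0.26, adjusted p = 0.0281), while 11.5% of all genes fell. CTS1, the chitinase of cell separation, had -0.66, and SPR1, a glucanase of sporulation, had 1.40 ± 0.72, neither passing. The median of the 18 was 0.30 at 30 min against -1.41 for the 9 members. With library totals, which raised the median of all genes by 0.31, 10 of the 18 rose and 1 fell, when 30.3% of all genes rose and 10.4% fell. GAS2, also in that list, had a mean input count of 4.1 and was not tested.

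**Figure D5:**
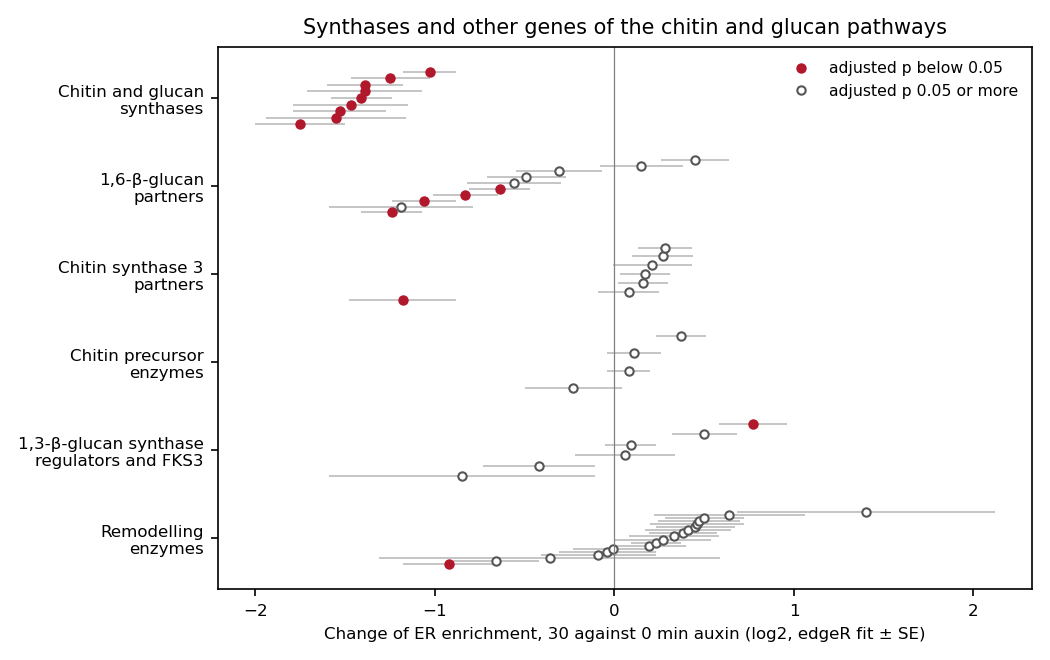
Change of ER enrichment after 30 min of auxin (log2, x axis, edgeR estimate ± SE) of each gene in 6 groups (y axis), with filled points for an adjusted p below 0.05. All 9 members lie between -1.75 and -1.03, and the remodelling enzymes lie around a median of 0.30.

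In whole-cell footprints at 60 min 11 of 18 remodelling enzymes fell and 0 rose, with a median of -0.91, while 28.2% of all genes fell and 30.6% rose. The lower ones included CTS1 (-2.41 ± 0.23, edgeR adjusted p = 2.11e-06) and DSE4 (-1.81 ± 0.12, adjusted p = 2.29e-07). Of the 6 genes for 1,3-beta-glucan synthase regulators and FKS3 5 rose, including FKS3 (1.73 ± 0.51, adjusted p = 0.0109) and ROM2 (0.34, adjusted p = 0.0334), and SMI1 fell (-0.63), and the median of the 6 was 0.43. With the glycolysis centring, under which 65.3% of all genes rose and 12.9% fell, 8 remodelling enzymes fell and 5 rose, and SMI1 did not pass. Of the 10 partners of 1,6-beta-glucan synthesis 3 rose, namely KEG1 (0.97), BIG1 (0.86) and TRS65 (0.45), and KNH1 (-1.65) and CNE1 (-0.38) fell, with a median of 0.06. Of the 7 partners of chitin synthase 3 the exomer genes BUD7 (1.3), CHS6 (0.88) and BCH1 (0.42) rose and CHS5 (-0.30) fell, with a median of 0.04. Of the 4 precursor enzymes QRI1 (0.26) rose and GNA1 (-0.67) fell. The centring called 8 of the 10 and all 7 higher, with CHS5 turned to 0.34.

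In the genome (sacCer3) the 9 genes lie apart from each other, with at most a pair on 1 chromosome. CHS3 (YBR023C) spans 284428 to 287925 and CHS2 (YBR038W) 311898 to 314789 on chromosome II. GSC2 (YGR032W) spans 548264 to 553951 and SKN1 (YGR143W) 775193 to 777508 on chromosome VII. CHS7 (YHR142W) lies at 383538 to 384488 on chromosome VIII, FKS1 (YLR342W) at 809997 to 815627 on XII, CHS1 (YNL192W) at 276502 to 279897 on XIV, KRE5 (YOR336W) at 949773 to 953870 on XV and KRE6 (YPR159W) at 857583 to 859745 on XVI. The lengths behind the deposited RPKM values were 99.6% to 100% of these annotated spans, which for these genes are coding sequence.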

How the data were processed

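The authors deposited, per the file headers, 1 count of aligned ribosome footprints and 1 RPKM value per gene and library for 5890 genes. Reads were handled with CASAVA, Bowtie 1.1.2 and TopHat2 2.1.1 on sacCer3, per the submitters' processing notes. Some libraries had molecular identifiers, per the labels' protocols. Whether these were collapsed, whether strand was kept and how multiply matching reads were counted is not given in the sources used here. Scaling was TMM (edgeR 4.0.16, R 4.3.3) over the 5286 tested genes, with a prior count of 1 in printed enrichment. The edgeR quasi-likelihood test was 2-sided, with pair as a block in enrichment fits. The joint fit had 1 enrichment term per series (6 residual degrees of freedom). The fit without auxin had enrichment terms by compartment (3 degrees of freedom). The fits between ER baits (3) and for cycloheximide (2) had 1 enrichment term per auxin time and 1 for bait or drug. Inputs had series as a block (7 degrees of freedom). Benjamini-Hochberg adjustment ran over all tested genes, with a threshold of 0.05. Alternatives were library totals, centring on glycolysis and translation factor genes, DESeq2 1.42.0, no filter, no series block and leaving out each series. All 9 members and up to 3 genes from each of 5 lists, those with the largest absolute ER change at 30 min, are named, with 3 genes of like pattern for CHS3, FKS1 and KRE5, and other list genes were named after their values were seen. Members and lists were chosen with earlier results of these data known.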

Additional observations from a re-analysis of the deposited data

Results flagged for a closer look

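For 6 messages the 30 min change of enrichment differed between the ER and the mitochondrial baits by the edgeR test of the difference itself. The difference, ER minus mitochondria on the log2 scale, was -2.24 for CHS3, -1.94 for FKS1, -1.93 for KRE5, -1.71 for GSC2, -1.31 for SKN1 and -1.20 for KRE6. CHS3, KRE5, KRE6 and GSC2 were lower at 30 than at 0 min in 3 of 3 ER series and higher in 2 of 2 mitochondrial series. The rise of GSC2 with Om45 was only 0.02. The median of all genes changed by 0.07 with Tom20 and 0.06 with Om45, and the share of all genes with this pattern is not given here. Without the Tom20 series only CHS3 still passed, and with 1 shared enrichment term per compartment none did. Without the Sec63 series lacking cycloheximide CHS7, CHS2 and CHS1 passed too, and the share of all genes in that fit is not given here.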

How the results depend on the processing

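Values below are numbers of the 9 genes called. At the ER at 30 min all 9 were called, but 1 (FKS1) when the series were given 1 shared enrichment term per compartment (no series block). The ER minus mitochondria difference of 30 min changes called 6, with no series block 0, and 1 to 9 when a series was left out. Without auxin, ER against mitochondria called 4, with library totals 7, with DESeq2 7, and 0 to 9 when a series was left out. Of all genes 9.48% were higher there, and 14.2% with library totals, and the share with DESeq2 is not given here. Cycloheximide against none called 7, and 4 with library totals. Of all genes 19.2% were higher there, and 13.8% with library totals, when 57.4% were lower. At the mitochondria DESeq2 called 1 and edgeR 0. At the ER at 15 min 0 were called, and 0 to 3 without a series. Inputs at 15 min called 1, with no series block 0, and 0 to 1 without a series. Shares of all genes with no series block or with a series left out are not given here. In inputs at 60 min the glycolysis centring reversed CHS2 (0.11), CHS3 (0.07), KRE5 (0.47), KRE6 (0.48) and SKN1 (0.60), and it raised the median of all genes by 0.64. Another 25 values changed sign without being called on either side. With library totals these were CHS7 at the mitochondria (-0.03), CHS1 (-0.03) and CHS2 (-0.02) between ER baits, CHS1 (-0.07) and CHS2 (-0.11) for cycloheximide, and in inputs GSC2 (-0.04) and SKN1 (-0.09) at 30 min and SKN1 (0.05) at 60 min. With no series block they were KRE6 (0.26) and SKN1 (0.23) at the ER at 15 min. When a series was left out, KRE5 ran from -0.90 to 0.10 and SKN1 from -0.65 to 0.11 at the ER at 15 min. At the mitochondria CHS7 then ran from -0.18 to 0.26, FKS1 from 0 to 0.36, GSC2 from -0.01 to 0.33, KRE6 from -0.02 to 0.20 and SKN1 from -0.27 to 0.06. In inputs at 15 min CHS1 ran from -0.03 to 0.53, CHS2 from -0.26 to 0.06, CHS7 from -0.11 to 0.16 and FKS1 from -0.14 to 0.13, and SKN1 at 60 min from -0.11 to 0.02. The cause of these moves was not tested. Pulldown and input of a culture were paired in every enrichment fit, and labels give no replicate numbers for another pairing. Of all genes, 468 rose and 608 fell at the ER at 30 min, with 1603 and 550 under library totals and 159 and 668 under the centring, and 1220 and 649 at 60 min, with 189 and 740 under the centring and 515 and 674 (43.3% higher) under TMM over all genes with a count, an alternative chosen after seeing the data. The share of higher calls among all calls was 43.5% at the ER at 30 min (74.5% with library totals, 19.2% with the centring), 65.3% at 60 min (20.3% with the centring), 19.6% for the difference of changes (36.7% with library totals), 46.7% for ER against mitochondria (35.5% with the centring), 83.3% for Sec63 against Ubc6 (45.8% with library totals), 74.9% for cycloheximide (19.4% with library totals), 38.2% in inputs at 15 min (27.1% with the centring), 47.6% at 30 min (26.6% with library totals) and 52% at 60 min (83.5% with the centring). Of the alternative values of single members 859 kept direction and side of the threshold, 56 lost the call, 27 gained it and 30 changed sign. Counting errors of log2 enrichment were at most 0.16 for the 9 genes.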
